A study of Mus musculus with 20 samples.

Results

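The genes described here encode 7 transcription factors of hair follicle stem cells: Sox9, Lhx2, Foxc1, Tbx1, Nfib, Gli1 and Gli2. Their open chromatin was taken from 10 lists of ATAC-seq peaks. A peak belongs to a gene where its summit lies in the gene's mm10 span or within 50 kb of either end. Overlapping peaks of a list were merged into regions, and 723 of the 539319 regions over the 10 lists belonged to the 7 genes. Merged across lists, these regions make 124 loci of 101406: 9 at Sox9, 9 at Lhx2, 11 at Foxc1, 16 at Tbx1, 38 at Nfib, 14 at Gli1 and 27 at Gli2. Assignment is by position, so a locus near a gene is not thereby one of its regulatory elements.

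ATAC-seq marks open chromatin by the insertion of sequencing adapters with the Tn5 transposase. The cells are tail epidermal cells called Lrig1 GL and Sca1+ in the labels, sorted to enrich for the upper hair follicle, and all groups carry the genotype Lrig1CreER/Rosa-TdTomato. In this design Cre is driven from Lrig1, a gene expressed in the upper follicle, and switches on a red fluorescent reporter. The 20 libraries form 10 groups of 2. A homeostasis group and groups taken 1 week and 8 weeks after a first wound, or 1 week after a second one, form a wound course of 4 lists. Vehicle and PRT4165 groups carry the time 0 weeks in their names. PRT4165 is an inhibitor of histone H2A ubiquitination by the Polycomb complex PRC1. A UVB group and a group with both wounding and UVB have no time given. Finally, 2 groups are cultured cells 8 weeks after a first wound, from a control (non-memory) or a distal memory region of the epidermis. Ages and sexes are not given, nor whether the libraries of a group came from separate animals. Both libraries of a group went into 1 peak list, so replicate error is unknown for every value here and differences between lists are given untested.

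The hair follicle renews from stem cells in its bulge, and these factors are part of the network that keeps them. Sox9 specifies and maintains the bulge stem cells, Lhx2 is a LIM homeobox factor that maintains them, and Foxc1 is a forkhead factor that supports their quiescence. Tbx1 is a T-box factor linked to their self-renewal, and Nfib, of the nuclear factor I family, regulates them and the neighbouring melanocyte stem cells. Gli1 and Gli2 are zinc finger effectors of Hedgehog signalling: Gli2 is its main activator, and Gli1 is both an activator and a target gene of the pathway. The cells sorted here were enriched for the upper follicle, so the regions below are not those of purified bulge cells.

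Annotated start sites were given for 4 of the 7 genes. Both Lhx2 and Tbx1 have a pair of them that differed in the number of lists with a region over the start, so the 250 bases before each of these 4 starts are printed. The sequences are those of RefSeq for GRCm38.p6 (mm10), 5′ to 3′ on the strand of the gene. Capitals mark the GC box GGGCGG on either strand, the element bound by Sp family factors.
Lhx2 start at 38339281 (chr2:38339031-38339280, plus strand): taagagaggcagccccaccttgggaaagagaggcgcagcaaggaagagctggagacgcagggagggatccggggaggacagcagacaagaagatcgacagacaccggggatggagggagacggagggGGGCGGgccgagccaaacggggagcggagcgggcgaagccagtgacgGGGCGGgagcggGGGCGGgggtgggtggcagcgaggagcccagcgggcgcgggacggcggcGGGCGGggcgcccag
Lhx2 start at 38351308 (chr2:38351058-38351307, plus strand): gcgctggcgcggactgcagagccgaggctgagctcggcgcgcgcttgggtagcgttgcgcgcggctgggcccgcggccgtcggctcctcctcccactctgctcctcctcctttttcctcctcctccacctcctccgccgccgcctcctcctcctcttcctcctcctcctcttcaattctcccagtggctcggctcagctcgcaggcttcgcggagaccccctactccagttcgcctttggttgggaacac
Tbx1 start at 18588899 (chr16:18588900-18589149, minus strand): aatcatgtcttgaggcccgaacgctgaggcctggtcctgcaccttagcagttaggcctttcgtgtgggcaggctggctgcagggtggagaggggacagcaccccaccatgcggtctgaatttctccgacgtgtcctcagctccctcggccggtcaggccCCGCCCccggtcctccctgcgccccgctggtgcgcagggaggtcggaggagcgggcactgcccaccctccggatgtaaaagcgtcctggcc
Tbx1 start at 18590671 (chr16:18590672-18590921, minus strand): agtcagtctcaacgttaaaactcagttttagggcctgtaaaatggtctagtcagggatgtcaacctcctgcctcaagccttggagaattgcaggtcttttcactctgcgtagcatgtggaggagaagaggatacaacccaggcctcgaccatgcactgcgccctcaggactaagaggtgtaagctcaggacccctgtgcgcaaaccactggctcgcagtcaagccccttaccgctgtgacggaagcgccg

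The Lhx2 start at 38339281 lies at the lower end of the gene span and was covered by a region in 4 lists. The other Lhx2 start, inside the span, was covered in all 10. Both stretches are rich in G and C, at 72.8% and 68.4%, with 25 and 24 CpG dinucleotides, against a median of 52.4% and 6 CpG over the 32841 stretches of the same length in the table. The start covered in 4 lists has 4 GC boxes and the start covered in all 10 has 0. At least 1 GC box was found in 32.7% of all stretches. At Tbx1, the start covered in 0 lists has 67.2% G and C, 17 CpG and 1 GC box, and the one covered in 4 lists has 54.4%, 10 CpG and 0 GC boxes. The single starts of Foxc1 and Gli2, both covered in all 10 lists, are preceded by 70.8% G and C with 29 CpG and by 67.2% with 22 CpG, and each has 1 GC box. Other motifs searched on both strands were the CCAAT box, the TATA box in the form TATAAA, the AP-1 motif TGANTCA, the GLI motif GACCACCCA, the E-box CANNTG and the palindromic NFI motif TTGGC followed, after any 5 bases, by GCCAA. Among the 6 stretches, CCAAT was found before the Foxc1 start (33.9% of all stretches hold it) and an E-box before the Tbx1 start at 18590671 (66.2% hold one). TATAAA (12.4%), the AP-1 motif (6.75%), the GLI motif (0.225%) and the NFI motif (0.0365%) were in none of the 6 stretches. These are matches of letters in a window, not binding sites.

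The list lengths ran from 34644 regions at 8 weeks to 73340 with UVB (61957 and 122700 peaks), with read depth not stated. A region of the list lay within 1 kb of a start or span end of the sorted lineage's Lrig1 and Ly6a and of the keratinocyte genes Krt14 and Krt5 in all 10 lists. The 5 markers of the upper follicle and sorted lineage include Lrig1, Ly6a and Sox9, the last itself a gene described here. They are thus not an independent check of cell identity. Of these 5, 4 or 5 had such a region within 1 kb in each list, and of 6 keratinocyte markers 5 or 6. Among markers of other cells, this held for 1 to 3 of 9 for dermal papilla and fibroblasts, 0 or 1 of 4 for T cells, 0 to 2 of 5 for Langerhans cells and macrophages, 2 to 4 of 5 for melanocytes, 0 or 1 of 4 for endothelium and 0 to 3 of 4 for Merkel cells. The fibroblast count was highest in the vehicle list (3). T cell, endothelial and Merkel cell counts there were tied with PRT4165 and both UVB lists, and endothelial ones also with 1 week and culture. Langerhans cell and macrophage counts were highest in the cultured lists (2 in each) and the melanocyte count with UVB (4). Regions at the ends of the Y-linked genes Ddx3y, Uty and Eif2s3y were in 5 lists (1 week after either wound, both cultured groups and wound with UVB) and in none of the other 5. The part of these differences in the results below was not tested.

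The 7 genes had 50 regions in the homeostasis list, 69 at 1 week, 42 at 8 weeks and 54 in the second-wound list. There were 97 in the vehicle list, 96 with PRT4165, 100 under UVB, 99 under wound plus UVB, and in culture 59 from the control and 57 from the distal region. These counts followed the lengths of the lists, with r = 0.967 over 10 lists as a description. Per 10000 regions of a list, the 7 genes had between 10.9 regions (cultured control) and 14.9 (wound with UVB). A locus absent from a list of sorted bulk cells may have been open in fewer cells or less open per cell. It may also have been equally open and missed by the threshold of the list. These cannot be told apart.

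**Figure D1:**
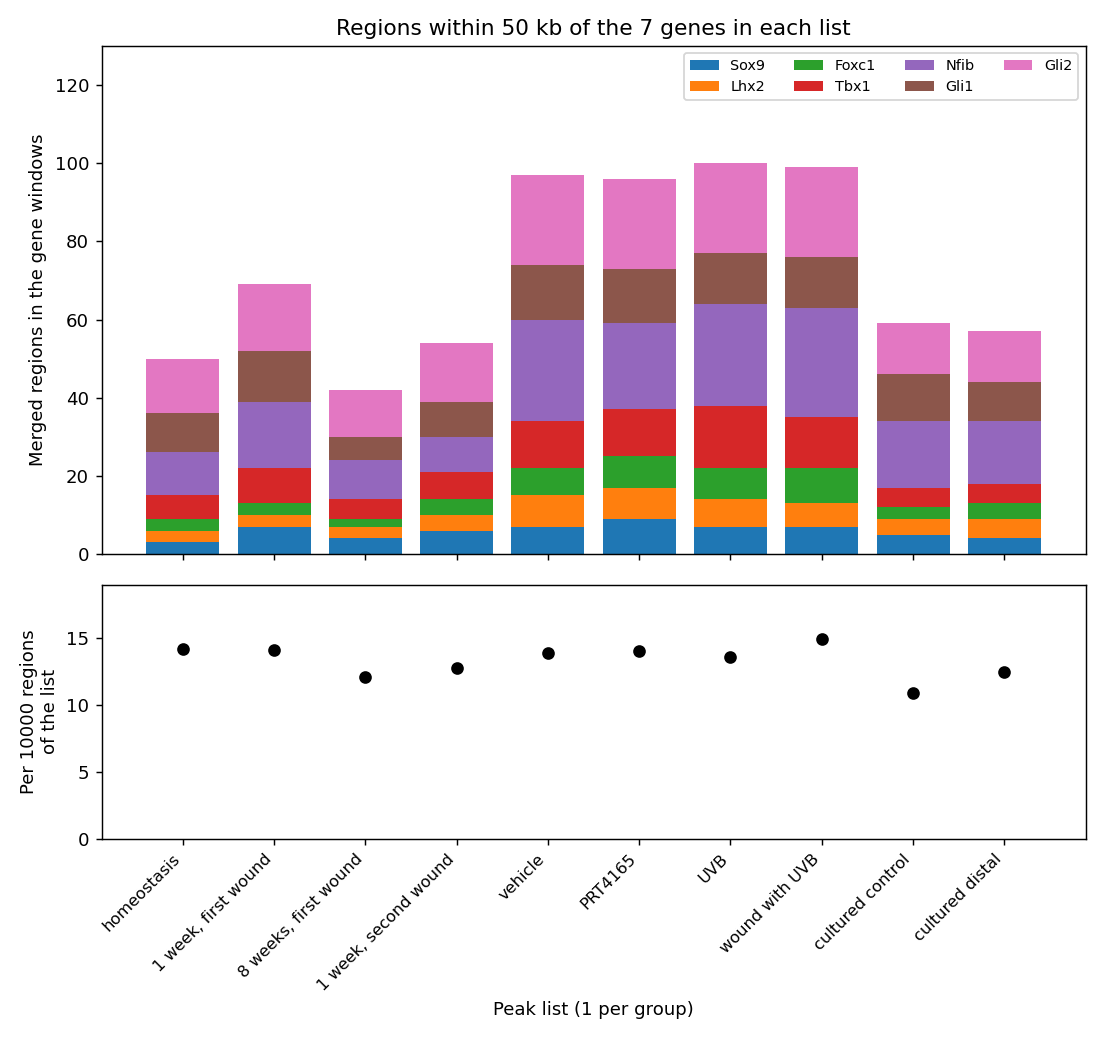
Regions of the 7 genes in each of the 10 peak lists (bars stacked by gene, upper panel; number of regions on the vertical axis) and the same total per 10000 regions of the list (points, lower panel). The counts run from 42 at 8 weeks to 100 with UVB, and the rates from 10.9 to 14.9.

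The signal value given below is the authors' enrichment value of a peak. It serves for rank within a list, given as a percentile, and values from different lists show no change between conditions. Of the 124 loci, 28 were in all 10 lists (22.6%, 95% Wilson interval 16.1 to 30.7%), against 18.8% of all loci. By gene these were 10 at Gli2, 5 at Nfib, 5 at Gli1, 3 at Sox9, 2 at Lhx2, 2 at Tbx1 and 1 at Foxc1. A further 18 loci were in 1 list only (14.5%, against 17.1% of all loci), and 11 of these lay at Nfib, which had 38 of the 124 loci. The loci in all 10 lists had a median width of 937 bp and those in 1 list 365 bp, and their median percentiles of signal value within the lists were 73.1 and 12.1. Over all loci the corresponding widths were 1010 and 347 bp, and the percentiles 72.9 and 18.7. Loci in 4 to 9 lists had a median percentile of 25.3 at the 7 genes and 43.8 over all loci.

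Of the 124 loci, 48 had their strongest summit in the span of their own gene, which includes introns and exons that were not separated here. Another 19 lay in the span of a neighbouring protein-coding gene: 10 of the 16 Tbx1 loci (in Gnb1l, Gp1bb and Septin5) and 9 of the 14 Gli1 loci (in Mbd6, Mars1, Arhgap9, Inhbe and R3hdm2). No locus of the other 5 genes lay in the span of another protein-coding gene. Regions were dense at Gli1, with 5.37 to 12.5 per 100 kb in the 10 lists, above 84.3 to 97.7% of all 21887 protein-coding genes. For Tbx1 the density was 4.56 to 14.6, above 60.4 to 96.8% of genes, and for Lhx2 2.30 to 6.13, above 40.4 to 65.8%.

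**Figure D2:**
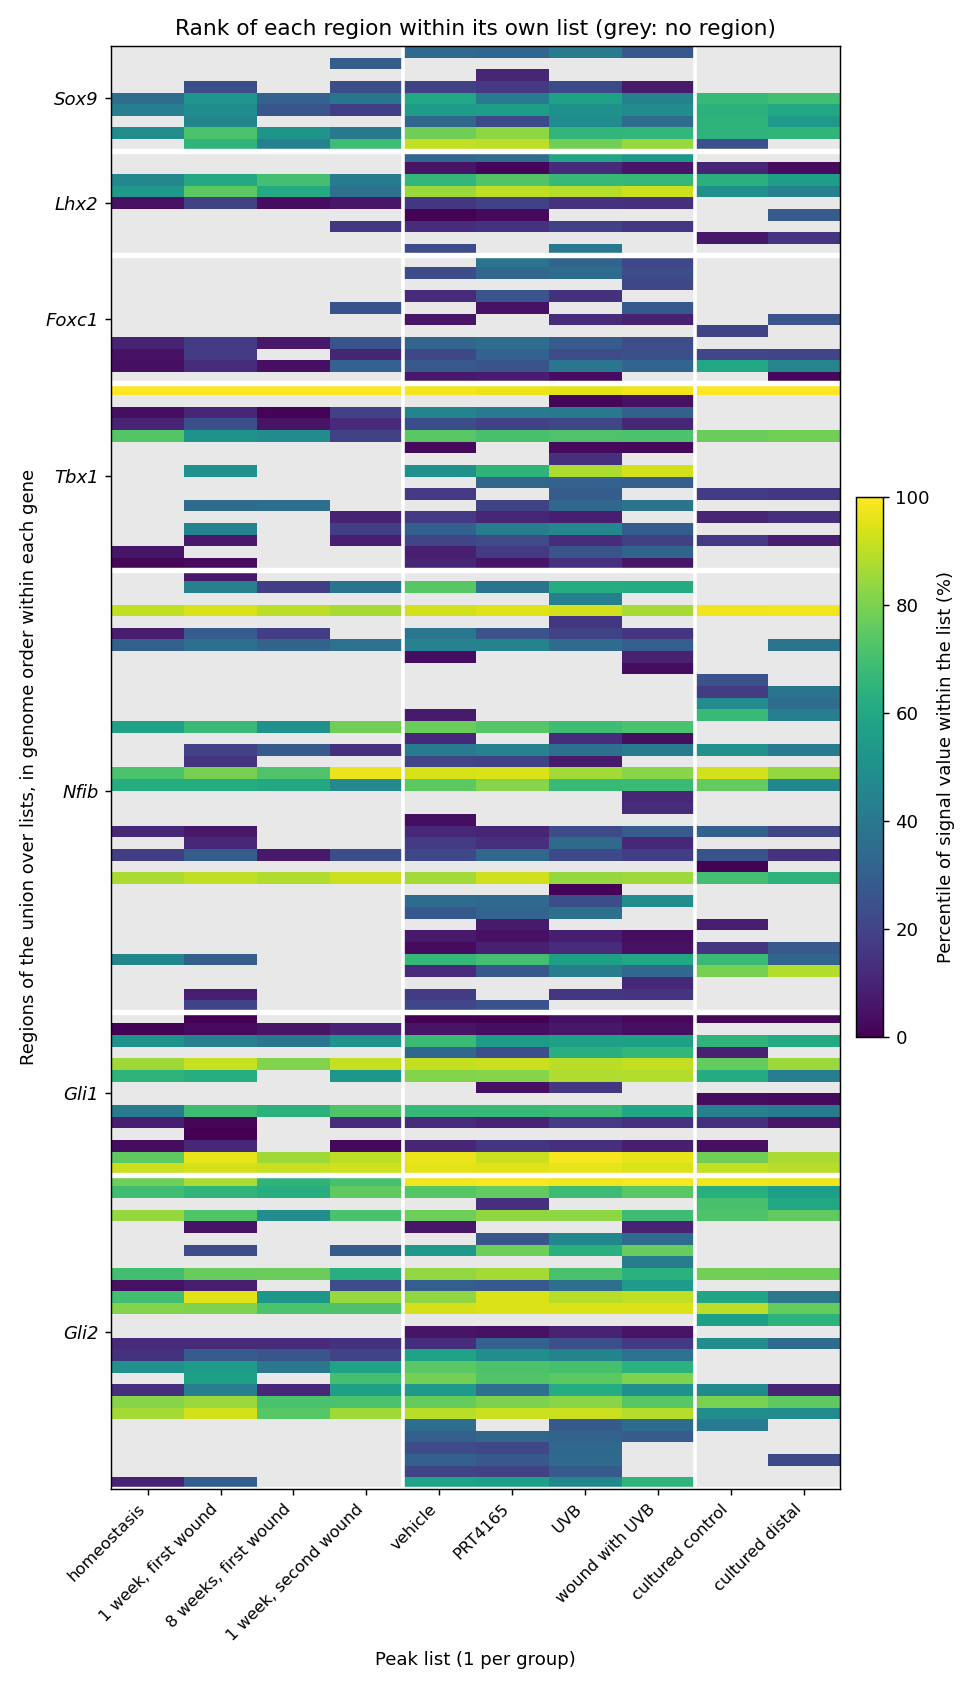
Each row is 1 of the 124 loci, in genome order within its gene, and each column 1 of the 10 lists. Colour gives the percentile of the region's signal value within its own list (0 to 100%) and grey marks a list without a region. The 28 loci in all 10 lists appear as unbroken rows, and many more rows are filled in the vehicle, PRT4165 and UVB columns than in the 4 columns of the wound course.

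Sox9 lies on chromosome 11 from 112782210 to 112787757. A region over its lower end (112781059 to 112783085) was in all 10 lists. Its signal value was 8.41 in homeostasis, 8.86 at 1 week, 7.46 at 8 weeks, 6.71 with the second wound, 9.70 with vehicle, 10.3 with PRT4165, 9.81 under UVB, 10.8 under wound plus UVB, 11.0 in cultured control and 10.8 in cultured distal cells. It ranked between percentile 18.7 (second wound) and 63.9 (cultured control) of its list. Loci 14.6 kb below the gene and 23.5 kb above it were also in all 10 lists, the latter with percentiles from 40.5 to 82.9.

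A further Sox9 locus lies 36.6 kb above the gene (112823835 to 112824770) and was absent from homeostasis and from the cultured distal list. Its signal value was 10.7 at 1 week, 8.81 at 8 weeks, 11.5 with the second wound, 17.6 with vehicle, 17.7 with PRT4165, 14.9 under UVB, 18.0 under wound plus UVB and 6.56 in the cultured control list. The vehicle value lay at percentile 90.8 of its list and the cultured control value at 24.5. It was thus in each list of fresh cells taken after a wound, and also in the vehicle list, for which no wound is named. A region 0.733 kb above the gene was absent from homeostasis, 8 weeks and the second-wound list and present in the other 7. A locus 49.6 kb below the gene was in vehicle, PRT4165 and both UVB lists only, with values of 7.39, 7.62, 8.68 and 8.03.

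Lhx2 lies on chromosome 2 from 38339271 to 38369737. The region over its start at 38339281 had a signal value of 7.25 with vehicle, 7.93 with PRT4165, 11.1 under UVB and 11.4 under wound plus UVB, and was absent from the wound course and both cultured lists. Over the other start, at 38351308, the values were 8.68 in homeostasis, 10 at 1 week, 11.6 at 8 weeks, 8.58 with the second wound, 11.3 with vehicle, 12.9 with PRT4165, 12.3 under UVB, 13.7 under wound plus UVB, 10.9 in cultured control and 10.2 in cultured distal cells. The pair of stretches printed above therefore differ in the lists that hold a region over their start. The strongest Lhx2 region in 6 of the lists lay 0.775 kb below the upper end of the gene (38368652 to 38369166), in all 10 lists, and reached percentile 92.2 in the wound-and-UVB list. A locus 7.75 kb above the gene was in all 8 lists of fresh cells, with values from 4.83 to 6.34, and in neither cultured list.

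Foxc1 lies on chromosome 13 from 31806646 to 31810635, and the signal value of its strongest region ranked last among the 7 genes in all 10 lists. The region over its start was in all of them. Its signal value was 4.81 in homeostasis, 5.64 at 1 week, 5.06 at 8 weeks, 7.79 with the second wound, 6.77 with vehicle, 6.93 with PRT4165, 8.49 under UVB, 8.73 under wound plus UVB, 10.4 in cultured control and 9.04 in cultured distal cells. Within the lists this was percentile 4.24 in homeostasis and 59.8 in the cultured control. All other Foxc1 loci but 1 lay below the gene. The locus 9.14 kb below it was in all 8 fresh lists and neither cultured list, and the one 5.92 kb below was in 9 lists and absent at 8 weeks. A locus inside the gene, 1.64 kb from its lower end, was in vehicle (4.48), PRT4165 (4.91), UVB (3.82) and cultured distal (4.22), all at percentile 7.59 or lower of their lists.

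Tbx1 lies on chromosome 16 from 18580979 to 18590671. No region covered its start at 18588899 in any list. The start at 18590671 was covered in vehicle (5.70), UVB (7.34), cultured control (5.95) and cultured distal (6.22), and in none of the wound course lists. The strongest region of the window lay outside the gene, in the span of Gnb1l 47.7 kb below it, and is a narrow locus of 277 bp (18533121 to 18533397). Its value was 34.7 in homeostasis, 30.5 at 1 week, 32.5 at 8 weeks, 30.5 with the second wound, 23.3 with vehicle, 22.2 with PRT4165, 21.7 under UVB, 25.6 under wound plus UVB, 46.9 in cultured control and 49.3 in cultured distal cells. It was the strongest region of all 7 genes in 7 lists by signal value and in all 10 by −log10 p. Gnb1l encodes a WD repeat protein.

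Closer to Tbx1, a locus 6.48 kb below the gene (18574129 to 18574717) was present at 1 week (9.02), with vehicle (9.09), PRT4165 (11.6), UVB (17.5) and wound with UVB (21.6), and absent from the other 5 lists. Its percentile ran from 50.3 with vehicle to 93.1 with wound and UVB. A locus 24.3 kb above the gene was absent from homeostasis, the second-wound list, vehicle and both cultured lists. It was present at 1 week (7.67), at 8 weeks (8.17), with PRT4165 (6.36), with UVB (7.76) and with wound and UVB (9.47).

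Nfib spans chromosome 4 from 82290173 to 82506751, and 21 of its 38 loci lay inside it. The region within 1 kb of its upper end was in all 10 lists, with values from 5.49 at 8 weeks to 7.76 with PRT4165. No list held a region within 1 kb of the lower end. Stronger regions flanked the gene and lay inside it. The locus 6.53 kb below it (82283372 to 82284104) had values of 15.1 in homeostasis, 17.0 at 1 week, 15.3 at 8 weeks, 15.0 with the second wound, 18.6 with vehicle, 20.4 with PRT4165, 20.2 under UVB, 18.8 under wound plus UVB, 22.1 in cultured control and 22.2 in cultured distal cells. The locus 6.46 kb above the gene was likewise in all 10 lists, with values from 11.5 to 18.9. Inside the gene, the locus 70.8 kb from its upper end was in all 10 lists, at percentiles 71.6 to 97.0. It was the strongest Nfib region with the second wound (19.4) and with vehicle (19.2).

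At Nfib, 2 loci absent from homeostasis were present in all 3 lists of the wound course taken after a wound. One lies 46.3 kb below the gene and had 8.43 at 1 week, 6.79 at 8 weeks and 8.41 with the second wound. The other, inside the gene 106 kb from its upper end, had 6.29, 7.57 and 6.20. Together with the Sox9 locus 36.6 kb above that gene they were the only 3 of the 124 loci with this pattern (2.42%, against 3.28% of all loci). All 3 were also in the vehicle, PRT4165 and both UVB lists. A locus in the middle of Nfib (82384110 to 82385050) was in all 8 fresh lists, with values from 9.41 to 14.6, and in neither cultured list. The neighbouring locus less than 1 kb below it (82383365 to 82383701) was in vehicle (4.54), cultured control (11.5) and cultured distal (8.75).

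Gli1 lies on chromosome 10 from 127329882 to 127341579. Within 1 kb above its upper end 8 lists had a region and it was missing at 8 weeks and in the cultured distal list, with values from 4.32 to 5.88, at percentiles 2.04 to 14.9 of their lists. Inside the gene, the locus at 127338814 to 127339640 was in all 10 lists, with 8.26 in homeostasis, 11.1 at 1 week, 10.8 at 8 weeks, 12.0 with the second wound, 11.4 with vehicle, 11.9 with PRT4165, 12.6 under UVB, 12.4 under wound plus UVB, 8.41 in cultured control and 8.61 in cultured distal cells. The locus 5.18 kb below the gene, in the span of Arhgap9, was absent at 8 weeks only. Its values were 10.5 in homeostasis, 10.3 at 1 week and 9.70 after the second wound, between 14.4 and 19.4 in the 4 lists of vehicle, PRT4165 and UVB, 10.6 in cultured control and 8.77 in cultured distal cells. In every list the strongest region of the window was 1 of the pair at the ends of Inhbe and R3hdm2, 9.25 and 39.0 kb above Gli1, which were in all 10 lists.

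Gli2 spans chromosome 1 from 118834061 to 119054405, and 18 of its 27 loci lay inside it. The region over its start at 119053619 was in all 10 lists, with 13.0 in homeostasis, 13.9 at 1 week, 11.7 at 8 weeks, 12.0 with the second wound, 13.2 with vehicle, 14.6 with PRT4165, 15.7 under UVB, 15.2 under wound plus UVB, 14.0 in cultured control and 13.3 in cultured distal cells. Of the 27 Gli2 loci 10 were in all lists, beside 5 of 14 at Gli1 and 3 of 9 at Sox9. The Gli2 window is the longest of the 7, at 320345 bp. The locus 26.2 kb below the gene had 12.3 in homeostasis, 14.5 at 1 week, 10.9 at 8 weeks, and 11.8 with the second wound, and between 21.2 and 28.8 in the other 6 lists. It was the strongest region of all 7 genes with PRT4165 and with wound and UVB.

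Inside Gli2, 2 loci were present 1 week after each wound and absent from homeostasis and at 8 weeks. The locus 20.2 kb from the upper end had 9.66 after the first and 11.7 after the second wound, and the locus 152 kb from the upper end 6.65 and 7.63. Both were in the vehicle, PRT4165 and UVB lists, with values between 9.53 and 16.8, and in neither cultured list. Of all 124 loci, 5 had this pattern in the wound course (4.03%, against 4.45% of all loci), the others being 1 at Sox9 and 2 at Tbx1. Adjacent loci 31.8 and 39.1 kb from the upper end of Gli2 were in all 8 fresh lists and neither cultured list. Conversely, a locus 60.4 kb from that end, chosen after its values were seen, was in the cultured lists only, with 9.91 and 11.5.

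**Figure D3:**
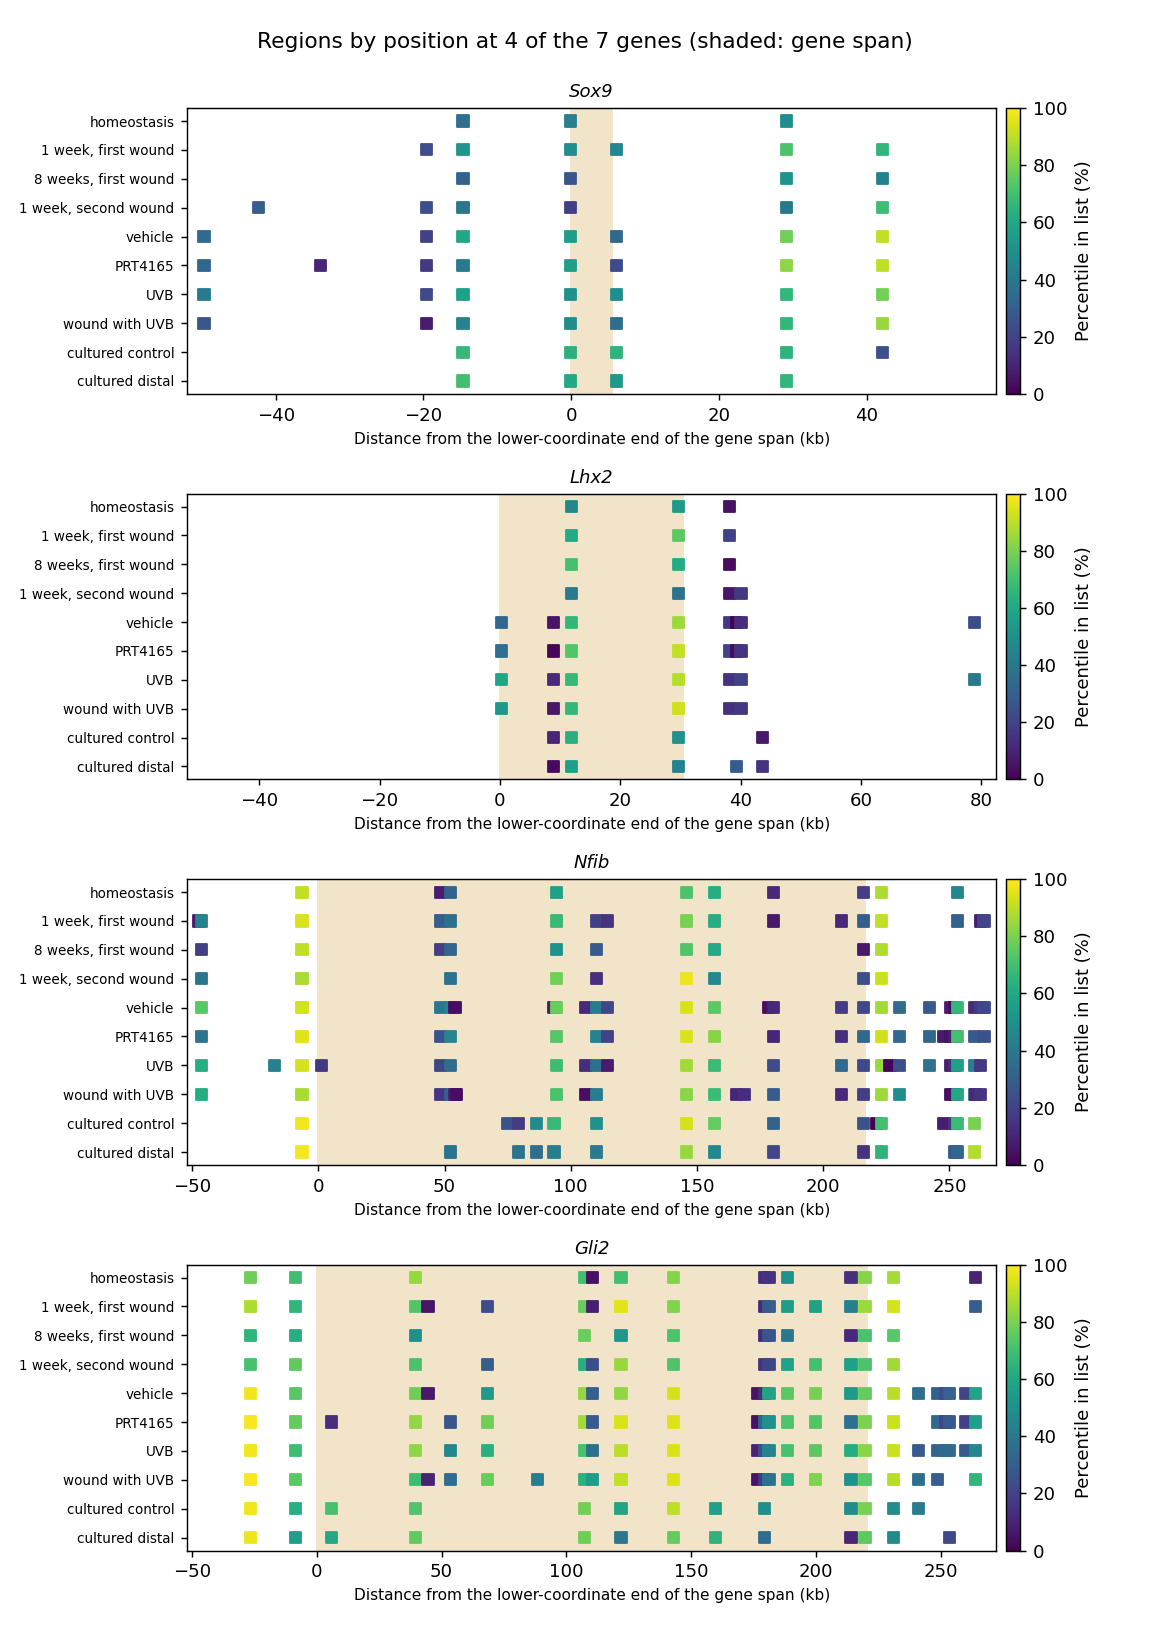
Regions of Sox9, Lhx2, Nfib and Gli2 by distance from the lower end of the gene span (horizontal axis, kb), 1 row of squares per list, with the gene span shaded and colour giving the percentile of signal value within the list. The Sox9 locus above the gene is missing from the homeostasis and cultured distal rows, and the Lhx2 region at the lower end appears in 4 rows.

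Start sites and span ends differed in the lists that held them. Regions within 1 kb of Foxc1's and Gli2's start, of 1 Lhx2 start, of Sox9's lower end and of Nfib's upper end were in all 10 lists. Within 1 kb of Sox9's upper end 7 lists had a region, and homeostasis, 8 weeks and the second wound had none. At Gli1's upper end 8 lists had one, and 8 weeks and cultured distal had none. No list had a region within 1 kb of the lower ends of Nfib and Gli1. The Lhx2 start at the lower coordinate and the Tbx1 start at 18590671 had a region in none of the wound course lists. The lists that held the Lhx2 start at the lower coordinate are the 4 longest, with 66541 to 73340 regions. Of these, vehicle and UVB held the Tbx1 start at 18590671, and PRT4165 and wound with UVB did not. Both cultured lists, with 54188 and 45714 regions, held it. The part of list length in this was not tested.

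**Figure D4:**
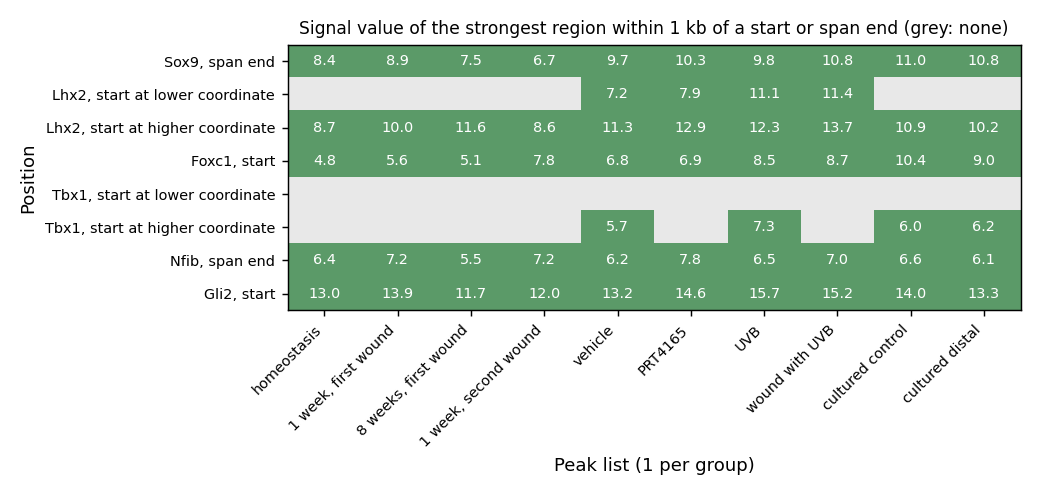
Signal value (number in each cell) of the strongest region within 1 kb of each start site of Lhx2, Foxc1, Tbx1 and Gli2, of the lower span end of Sox9 and of the upper span end of Nfib, by list; grey cells have no region. The Lhx2 start at the lower coordinate is held by 4 lists, the Tbx1 start at the higher coordinate by 4 and the other Tbx1 start by 0. Span ends that no region covered directly are not drawn, among them the upper ends of Sox9 and Gli1.

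For each comparison, gained means a region of the first-named list without an overlap of at least 1 bp in the other list, and lost the reverse. Regions and not loci were compared, so such a region can lie in a locus that both lists hold. A locus can also count more than once. Gained and lost counts depend on list length. They were therefore also taken with both lists limited to the same number of regions with the highest signal values. Shares at equal length are given without intervals. This cut removes the weakest regions of the longer list. The median percentile of the 7 genes' regions differed between lists, from 30.8 (vehicle) to 50.6 (cultured control). Its part in the results at equal length was not tested. In whole lists, over the 9 comparisons, the share of all regions gained or lost lay inside the 95% Wilson interval of the 7 genes' share in 18 of 18 cases. The 7 genes' share was below that of all regions in 14 of the 18 cases in whole lists and in 13 of 18 at equal length. The direction of gained minus lost reversed at equal length in 6 of 9. The homeostasis list serves in 3 comparisons and the vehicle list in 3, so these are not independent.

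**Figure D5:**
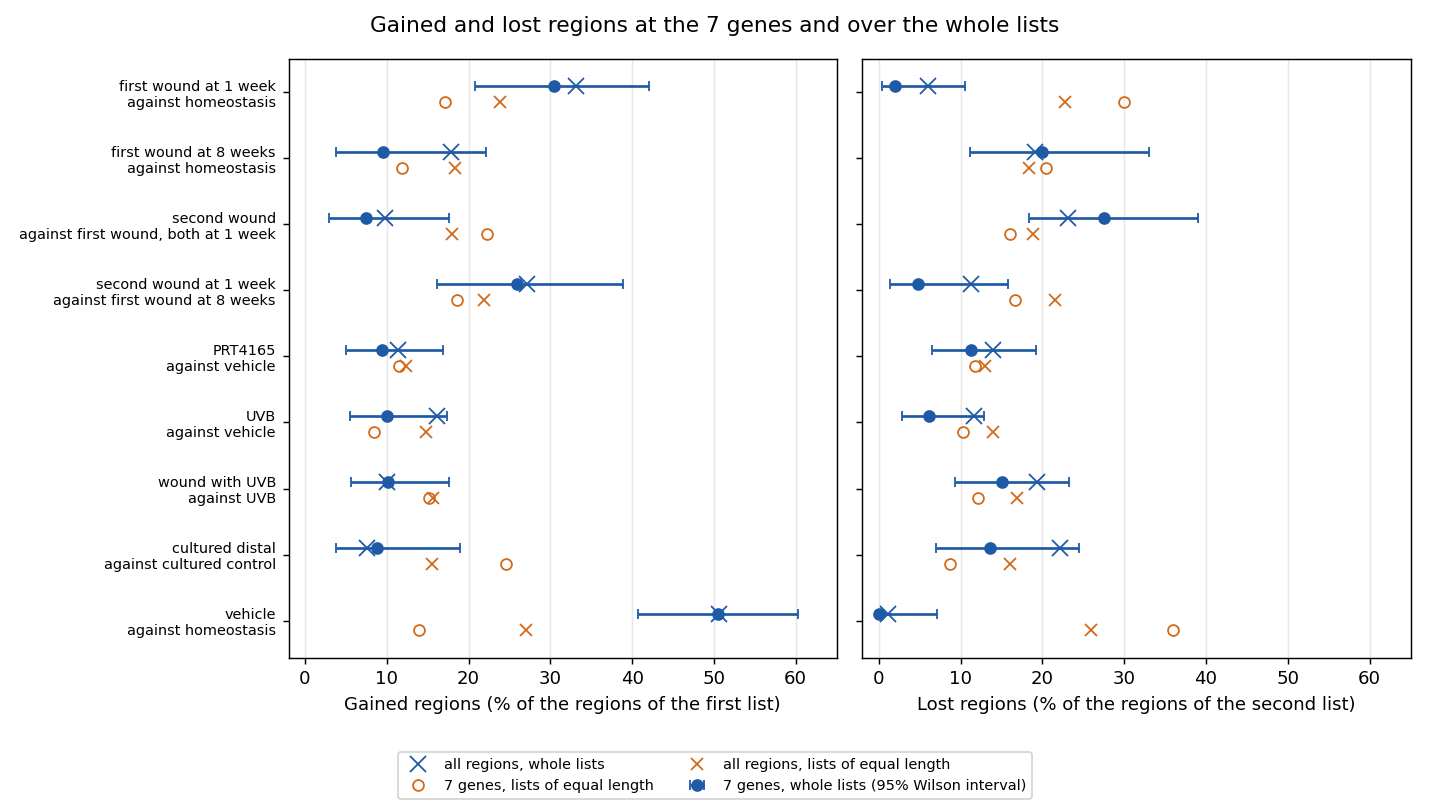
Share of regions gained (left, % of the first list) and lost (right, % of the second list) in each of the 9 comparisons. Filled circles with 95% Wilson intervals are the 7 genes and crosses all regions; orange symbols are the same with both lists at equal length. All blue crosses lie within the intervals of the 7 genes.

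One week after the first wound the 7 genes had 69 regions and in homeostasis 50, in lists of 49078 and 35195 regions, and their gained share was near that of all regions. Of the 69 regions, 21 were gained (30.4%, 20.8 to 42.1%), against 33.1% of all regions. Of the 50 homeostasis regions 1 was lost, against 6.04% of all regions, and it lay at Tbx1, 38.1 kb above the gene. Nfib gained 7 of 17 regions, Sox9 4 of 7, Tbx1 4 of 9, Gli1 3 of 13 and Gli2 3 of 17, while Lhx2 and Foxc1 gained 0 of 3 each. The Sox9 gains include a pair in the locus 19.5 kb below the gene, with signal values of 6.67 and 1.87. The Gli1 gains were a region of the locus 18.1 kb below the gene, which homeostasis also held (13.8), and weak regions at percentiles 0.367 and 0.00611. The strongest gained regions were the Sox9 locus 36.6 kb above the gene (10.7), the Gli2 locus 20.2 kb from the upper end (9.66) and the Tbx1 locus 6.48 kb below the gene (9.02). At equal length 7 were gained (17.1%) and 15 lost (30.0%), against 23.9% and 22.8% of all regions, so the direction turned. The vehicle list held 17 of the 21 gained regions, as it held 86.1% of all regions gained at 1 week.

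At 8 weeks the 7 genes had 42 regions and in homeostasis 50, in lists of 34644 and 35195 regions, and their lost share was near that of all regions. Of 42 regions 4 were gained (9.52%, 3.77 to 22.1%), against 17.9% of all regions, and 10 of 50 were lost (20%, 11.2 to 33.0%), against 19.1%. The 4 gained regions were those of Sox9 36.6 kb above the gene (8.81), Tbx1 24.3 kb above (8.17) and the 2 Nfib loci described above. Gli1 lost 3 of 10 regions, Gli2 2 of 14, Nfib 2 of 11, Tbx1 2 of 6 and Foxc1 1 of 3. The strongest lost regions were the Gli1 locus 5.18 kb below the gene (10.5 in homeostasis) and the Nfib locus 36.5 kb above that gene (8.65). At equal length 5 were gained (11.9%) and 10 lost (20.4%), against 18.4% and 18.4% of all regions. The vehicle list held 3 of the 4 gained and all 10 of the lost regions, as it held 93.8% of all regions gained and 95% of all regions lost at 8 weeks.

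After the second wound the 7 genes had 54 regions and 1 week after the first 69, in lists of 42200 and 49078 regions, and their lost share was near that of all regions. Of 54 regions 4 were gained (7.41%, 2.92 to 17.6%), against 9.85% of all regions, and 19 of 69 were lost (27.5%, 18.4 to 39.0%), against 23.1%. Nfib lost 8 of 17 regions and gained 0, Gli1 lost 4 of 13, Tbx1 lost 3 of 9 and gained 1, and Gli2 lost 2 of 17. The Gli1 losses include regions with 5.55 and 5.14 in the locus 18.1 kb below the gene, which all 10 lists held. The other Gli1 regions lost were weak, at percentiles 0.367 and 0.00611 of the 1-week list. Foxc1 and Lhx2 gained 1 region each and lost 0. The strongest gained region was 42.3 kb below Sox9 (7.63) and was in no other list. The strongest lost regions were the Tbx1 locus 6.48 kb below the gene (9.02 after the first wound) and the Sox9 region just above the gene (8.59). At equal length the direction turned, with 12 gained (22.2%) and 8 lost (16.0%), against 18.0% and 18.9% of all regions.

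Set against 8 weeks after the first wound, the second-wound list had 14 of 54 regions gained (25.9%, 16.1 to 38.9%), against 27.1% of all regions, and 2 of 42 lost (4.76%), against 11.3%. The gains were 3 each at Tbx1, Gli1 and Gli2, 2 each at Sox9 and Foxc1 and 1 at Lhx2. Nfib gained 0 and lost 1. The strongest were the Gli2 locus 20.2 kb from the upper end (11.7) and the Gli1 locus 5.18 kb below the gene (9.70). At equal length 8 were gained (18.6%) and 7 lost (16.7%), against 21.9% and 21.5% of all regions.

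PRT4165 and its vehicle shared most of the regions of the 7 genes. Of 96 regions 9 were gained (9.38%, 5.01 to 16.9%), against 11.4% of all regions, and 11 of 97 were lost (11.3%, 6.45 to 19.2%), against 13.9%. Nfib lost 5 of 26 and gained 1 of 22, Foxc1 gained 2 of 8 and lost 1 of 7, and Tbx1 and Gli2 gained and lost 2 each. The strongest gained region was 37.8 kb below Foxc1 (8.23), and it was also in both UVB lists. One Sox9 locus, 34.0 kb below the gene (5.38, percentile 10.6), was in the PRT4165 list alone. The lost regions included the one over the Tbx1 start at 18590671 (5.70 with vehicle). At equal length 11 were gained (11.5%) and 11 lost (11.7%), against 12.4% and 13.0% of all regions.

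The labels name no separate control for UVB, and vehicle was used. Of 100 regions 10 were gained (10%, 5.52 to 17.4%), against 16.2% of all regions, and 6 of 97 were lost (6.19%, 2.87 to 12.8%), against 11.6%. Tbx1 gained 4 of 16 regions and lost 0, the most of the 7 genes. Its gains include regions in the span of Gnb1l, at percentiles 13.6 and 1.27 of the UVB list. The other Tbx1 gains, 24.3 kb above the gene and inside it, were at percentiles 32.9 and 31.6. The strongest gained regions were a Gli2 locus 167 kb from the upper end (9.38), an Nfib locus 17.4 kb below that gene (8.95) and the Tbx1 locus 24.3 kb above its gene (7.76). At Sox9 0 of 7 regions were gained and 0 lost. At equal length the direction turned, with 8 gained (8.42%) and 10 lost (10.3%), against 14.8% and 14.0% of all regions.

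Wounding with UVB was compared with UVB alone. Of 99 regions 10 were gained (10.1%, 5.58 to 17.6%), against 10% of all regions, and 15 of 100 were lost (15.0%, 9.31 to 23.3%), against 19.3%. Nfib gained 5 and lost 5, Gli2 gained 3 and lost 3, Foxc1 gained 2 and lost 2, and Tbx1 gained 0 and lost 3. The Gli2 gains include a region at percentile 4.68 of its list, in a locus that all 10 lists held. The lost regions included 3 neighbouring loci above Gli2, 31.5, 33.3 and 39.5 kb from its upper end (7.85, 7.90 and 7.27 with UVB), and the region over the Tbx1 start at 18590671 (7.34). The strongest gained region lay inside Gli2, 132 kb from the upper end (9.96), and was in no other list. At equal length the direction turned, with 15 gained (15.2%) and 11 lost (12.1%), against 15.7% and 16.9% of all regions.

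Cultured cells from the distal memory region were compared with those from the control region. Of 57 regions 5 were gained (8.77%, 3.81 to 18.9%), against 7.60% of all regions, and 8 of 59 were lost (13.6%, 7.03 to 24.5%), against 22.2%. Nfib lost 3 of 17, Gli1 lost 2 of 12, and Sox9, Foxc1 and Gli2 lost 1 each. Among the lost regions was the Sox9 locus 36.6 kb above the gene, which the fresh 8-week list held. Foxc1 gained 2 of 4, with the strongest gains at Nfib (8.35, 165 kb from the upper end) and Lhx2 (7.43, 8.78 kb above the gene). At equal length the direction turned, with 14 gained (24.6%) and 4 lost (8.70%), against 15.5% and 16.0% of all regions.

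The vehicle and homeostasis lists, for which no wound is named, had the largest gained share of the 9 comparisons over whole lists. Of 97 vehicle regions 49 were gained (50.5%, 40.7 to 60.3%), against 50.6% of all regions, and 0 of 50 homeostasis regions were lost, with an upper Wilson bound of 7.13%, against 1.15%. Nfib gained 16 of 26, Gli2 9 of 23, Tbx1 6 of 12, Lhx2 5 of 8, Gli1 5 of 14, Sox9 4 of 7 and Foxc1 4 of 7. At Gli1 the loci 29.4 and 40.5 kb below the gene each counted more than once. The remaining Gli1 region lay in the locus 18.1 kb below the gene, which homeostasis also held (13.8). The Nfib locus 106 kb from the upper end also counted more than once. At equal length 5 were gained (13.9%) and 18 lost (36.0%), against 27.0% and 26.0% of all regions. Of the 124 loci, 45 were in none of the 4 wound course lists and in at least 1 of the vehicle, PRT4165 and UVB lists (36.3%, against 32.9% of all loci).

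Between fresh and cultured cells the 7 genes had few loci of culture alone. Of the 62 loci in a cultured list, 8 were in no fresh list (12.9%), against 24.9% of all loci, and of the 116 in a fresh list 62 were in no cultured list (53.4%), against 51.6%. The 8 loci were 4 at Nfib and 1 each at Lhx2, Foxc1, Gli1 and Gli2. Another 8 of the 124 loci were in all 8 fresh lists and neither cultured list (6.45%, 3.31 to 12.2%), near the 5.06% of all loci. They were 2 at Tbx1, 2 at Gli2 and 1 each at Lhx2, Foxc1, Nfib and Gli1. Sox9 had 0 of either kind. Culture and the depth of the libraries, which is not stated, cannot be told apart.

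Other genes of the Hedgehog pathway were counted by the same window: the ligands Shh, Ihh and Dhh, receptors and co-receptors such as Ptch1, Smo, Gas1, Cdon and Boc, and regulators such as Sufu, Kif7 and Gli3, 16 genes in all. At 1 week they gained 41 of 133 regions (30.8%, against 33.1% of all regions) and lost 7 of 98 (7.14%, against 6.04%). At 8 weeks 18 of 97 were gained (18.6%, against 17.9%) and 18 of 98 lost (18.4%, against 19.1%). After the second wound against the first, 12 of 117 were gained (10.3%, against 9.85%) and 25 of 133 lost (18.8%, against 23.1%). Sufu, which restrains the Gli proteins, gained 6 of 17 at 1 week. Smo and Disp1 gained 5 of 10 each there, and Cdon 5 of 12. With PRT4165 the 16 genes gained 13 of 183 (7.10%) and lost 15 of 181 (8.29%), against 11.4% and 13.9% of all regions. In the cultured comparison they gained 8 of 98 (8.16%, against 7.60%) and lost 24 of 115 (20.9%, against 22.2%).

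A list of 20 other factors of follicle and epidermis, among them Nfatc1, Tcf7l1, Runx1, Lef1 and Gata3, gained 83 of 238 regions at 1 week (34.9%, against 33.1% of all regions) and lost 11 of 166 (6.63%, against 6.04%). Foxp1, a forkhead factor of the bulge, gained 12 of 25. At 8 weeks the list gained 37 of 174 (21.3%, against 17.9%) and lost 29 of 166 (17.5%, against 19.1%). With PRT4165 it gained 32 of 330 (9.70%, against 11.4%) and lost 64 of 360 (17.8%, against 13.9%). With wound and UVB against UVB it gained 32 of 336 (9.52%, against 10%) and lost 65 of 367 (17.7%, against 19.3%). Foxp1 gained 12 of 43 there and lost 3 of 34. The counts of both lists of genes depend on list length as those of the 7 genes do, and were not repeated at equal length.

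The limit of 50 kb is arbitrary. The peak nearest to it on the inside lay 49.9 kb from Sox9 (PRT4165 list, 2.50), and the nearest on the outside 51.3 kb from Sox9 (cultured control list, 15.25). For the other 6 genes the outermost peak inside lay between 37.8 kb (Foxc1) and 48.4 kb (Lhx2), and the first outside between 51.9 kb (Lhx2) and 59.8 kb (Gli1).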

How the data were processed

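ATAC-seq was done on sorted cells, with Tn5 transposition and Nextera XT indexing per the labels' protocols, and the submitters' processing notes name mm10 as the build. Not given in the sources used here are aligner, peak caller, filters, depth and read shift. The 10 deposited peak lists, 1 per group from 2 libraries, passed a reproducibility threshold according to their names. Each deposited list gives the authors' score (540 or higher), the authors' signal value, the authors' −log10 p (2.00 or higher) and the summit offset. With no values per library, no test between groups and no check of replicates was possible.

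Overlapping peaks on chromosomes 1 to 19, X and Y were merged into regions, and the strongest peak gave the signal value. Presence was an overlap of at least 1 bp. Gene spans came from RefSeq for GRCm38.p6 (21887 protein-coding genes), without exons or strand. All 7 genes matched, and 4 matched the promoter table, which is not complete. Intervals are Wilson 95% intervals and cover counting error only. The code was tested on simulated lists. Python 3.11.15, numpy 2.4.6, pandas 2.3.3, scipy 1.17.1 and matplotlib 3.10.9 were used. All 7 genes are described, with the regions at starts and span ends, the strongest region, loci of all lists and up to 3 gained and lost regions per gene and comparison. The genes, lists and rules were chosen with earlier results of these data known. Alternatives were a 50% overlap, the strongest 50% of each list, equal length, windows of 20 kb or the gene span, and leaving out summits in other genes. Positions are 1-based.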

Additional observations from a re-analysis of the deposited data

How the results depend on the processing

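No paired analysis was possible because each group has 1 list made from both libraries, and for the same reason no library could be left out. Shares are given as percent of the list's regions at the 7 genes. At equal length, gained and lost shares moved for 1 week against homeostasis (17.1 and 30.0%), for the second against the first wound (22.2 and 16.0%) and for vehicle against homeostasis (13.9 and 36.0%), the lost share for the second wound against 8 weeks (16.7%) and the gained share in culture (24.6%). Gained minus lost reversed there to -8 at 1 week, 4 for the second against the first wound, -2 for UVB, 4 for wound with UVB, 10 in culture and -13 for vehicle against homeostasis. The ratio of the highest to the lowest count of regions per list fell to 1.48. With a window of 20 kb, the share lost at 1 week was 0%, and the gained shares were 3.33% at 8 weeks, 2.63% for the second against the first wound and 40.7% for vehicle. With the gene span only, 0% were lost at 1 week, 0% gained and 17.9% lost for the second against the first wound, and 3.70% lost in culture. In that setting gained minus lost was -1 for UVB, 3 for wound with UVB and 1 in culture, all reversed. Without summits in other genes 0% were lost at 1 week. In the strongest 50% of each list, 20% were lost for the second wound against 8 weeks, 0% gained with PRT4165, 5.56% gained and 5.56% lost for wound with UVB, 0% gained and 25.8% lost in culture and 38.9% gained for vehicle. With a 50% overlap 12.0% were lost for vehicle. The cause of these shifts was not tested, except that shorter lists and narrower windows hold fewer regions by construction. The share of loci in all 10 lists stayed between 21.7 and 30.1% in the 6 alternatives.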
